A study of Homo sapiens with 15 samples.

Results

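The genes described here encode subunits of the nuclear RNA polymerases I, II and III, subunits of the Mediator complex and general transcription factors. They were chosen by symbol, by a rule set with earlier results of these data known, as every protein-coding gene of the array's annotation whose symbol begins with POLR1, POLR2, POLR3, GTF2 or GTF3 or is MED followed by a number. The rule itself uses no expression value. Only array features that name 1 gene were used, so a gene without such a feature was not included. This gave 44 genes of 14812 measured, namely 11 polymerase subunits, 5 general transcription factor genes and 28 Mediator subunits. They were followed in MV4-11, a long-established line of acute myeloid leukemia that carries a KMT2A-AFF1 fusion and an internal duplication in FLT3, after 24 h in 5 groups of 3 arrays each. Cells received DMSO as the vehicle, 1 of 3 compounds at 300 nM (OTX015, DW71177 or DW71374), or RVX208 at 5 uM. OTX015 (birabresib) blocks both bromodomains of the BET proteins, which read acetylated histones, and RVX208 (apabetalone) prefers the second of them. DW71177 and DW71374 are known here by their codes only. All groups are the same single cell line, and whether the triplicate wells came from separate cultures is not given in the sources used here, so p-values measure only the spread among arrays, and that spread may be technical.

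RNA polymerase I transcribes the large ribosomal RNA precursor, polymerase II the messenger RNAs, and polymerase III the transfer RNAs, the smallest of the ribosomal RNAs and other short RNAs. The 3 enzymes share a set of small subunits and differ in the rest. General transcription factors place polymerase II or III at the promoter, and Mediator carries signals from enhancer-bound factors to polymerase II through a head, a middle and a tail joined by a scaffold subunit, with a kinase module that binds reversibly. BET proteins and Mediator are found at the same enhancers, and MYC, whose gene BET inhibitors lower in leukemia cells, is known to act on genes of the polymerase I and III machinery.

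The measured classes were incomplete. Polymerase I was represented by 2 subunits of its own (POLR1F and POLR1H), polymerase II by 2 (POLR2D and POLR2G), the subunits common to the 3 enzymes by 2 (POLR2F and POLR2H), and polymerase III by 5 (POLR3B, POLR3C, POLR3E, POLR3G and POLR3GL). The general factors were GTF2B, the 3 TFII-I family genes GTF2I, GTF2IRD1 and GTF2IRD2, and GTF3A. Mediator had 6 head, 9 middle, 1 scaffold, 8 tail and 4 kinase module genes. No TFIIH gene with a GTF2 symbol and none of the subunits shared by polymerases I and III alone is among the 44, nor are GTF2A1 and GTF2A1L. GTF2I and GTF2IRD2 have near-identical copies in the genome, so their signals are uncertain.

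Values are the deposited log2 signals, listed below in the order of replicates 1, 2 and 3, and each difference between 2 group means is on the log2 scale and is given ± its standard error (SE) from 1 limma fit of all 15 arrays, with p adjusted over 14812 genes by the Benjamini-Hochberg method and a call at an adjusted p under 0.05. The arrays were taken as scaled together before deposit, from their near-equal medians, and a shift shared by all genes would then not show. No background level was given; 5 members averaged under 5 over the arrays (MED27 2.58, MED12L 2.79, POLR2F 3.94, MED7 4.87 and MED19 4.89) and are called dim here, and a fold with 1 group mean under 5 is at best a lower bound. Replicate arrays correlated at 0.992 to 0.995 across genes. Of 7 myeloid markers measured, LYZ, PRTN3 and FLT3 averaged 10.5, 10.8 and 9.80. The others were lower, with SPI1 at 7.60, CSF1R at 6.43, CSF3R at 6.11 and MPO dim at 4.33. Of the 7, 6 were called lower with OTX015, 5 with DW71177, 4 with RVX208 and 0 with DW71374, among them LYZ (-1.02, -1.15 and -0.75 with the first 3) and CSF1R (-1.55, -1.06 and -0.33); none was called higher. Of 6 markers of other lineages, which averaged 2.72 (EPCAM) to 5.88 (EPOR), PF4 was called lower with OTX015 (-0.35) and CD2 with DW71177 (-0.29). The part of these markers in the results below was not tested. MYC, taken as a check on BET inhibition, differed from DMSO by -1.42 ± 0.054 with OTX015, -1.16 ± 0.054 with DW71177, -0.04 ± 0.054 with DW71374 and -0.32 ± 0.054 with RVX208.

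OTX015 lowered 12 of the 44 genes and raised 9, against 14.5% of all genes lowered, 11.2% raised and 25.7% called in either direction. Of the 44 genes, 39 averaged 5 or more, and the 12 lowered and 9 raised were all among these 39. The 6736 genes of mean 5 or more, fitted alone, gave 3777 calls with OTX015, 1637 higher and 2140 lower. In that fit 21 of the 39 members stayed called with OTX015 and 2 more were called. A count of members above the shares over all genes, here and below, is therefore not by itself an excess. A limma p under 0.05 before adjustment was seen for 23 of the 44 genes, against 33.4% of all genes. Of the polymerase subunits, 6 of 11 fell and 1 rose (median -0.22), and of the Mediator subunits 4 of 28 fell and 7 rose (median 0.02). Over all genes the median was -0.0038. DW71177 lowered 6 of the 44 genes and raised 10, against 9.88% and 9.95% of all genes (19.8% in either direction). These 6 and 10 were also among the 39, and the 6736 genes of mean 5 or more gave 3250 calls with DW71177. In that fit 16 of the 39 members stayed called with DW71177 and 6 more were called. Before adjustment 22 of the 44 had a limma p under 0.05, against 29.5% of all genes. Its polymerase subunits gave 4 lower and 1 higher (median -0.12), and its Mediator subunits 2 lower and 7 higher (median 0.08). RVX208 raised 3 genes and lowered 1, against 3.41% and 3.11% of all genes. Among the 6736 genes of mean 5 or more, 839 were higher and 737 lower with RVX208, and in that fit 4 members stayed called and 4 more were called. With DW71374 none of the 44 was called, beside 0% of all genes. The 4 comparisons share the same 3 DMSO arrays, so their values stand side by side and do not support each other. Without DMSO replicate 3 the count of genes raised by DW71177 was 5.

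**Figure D1:**
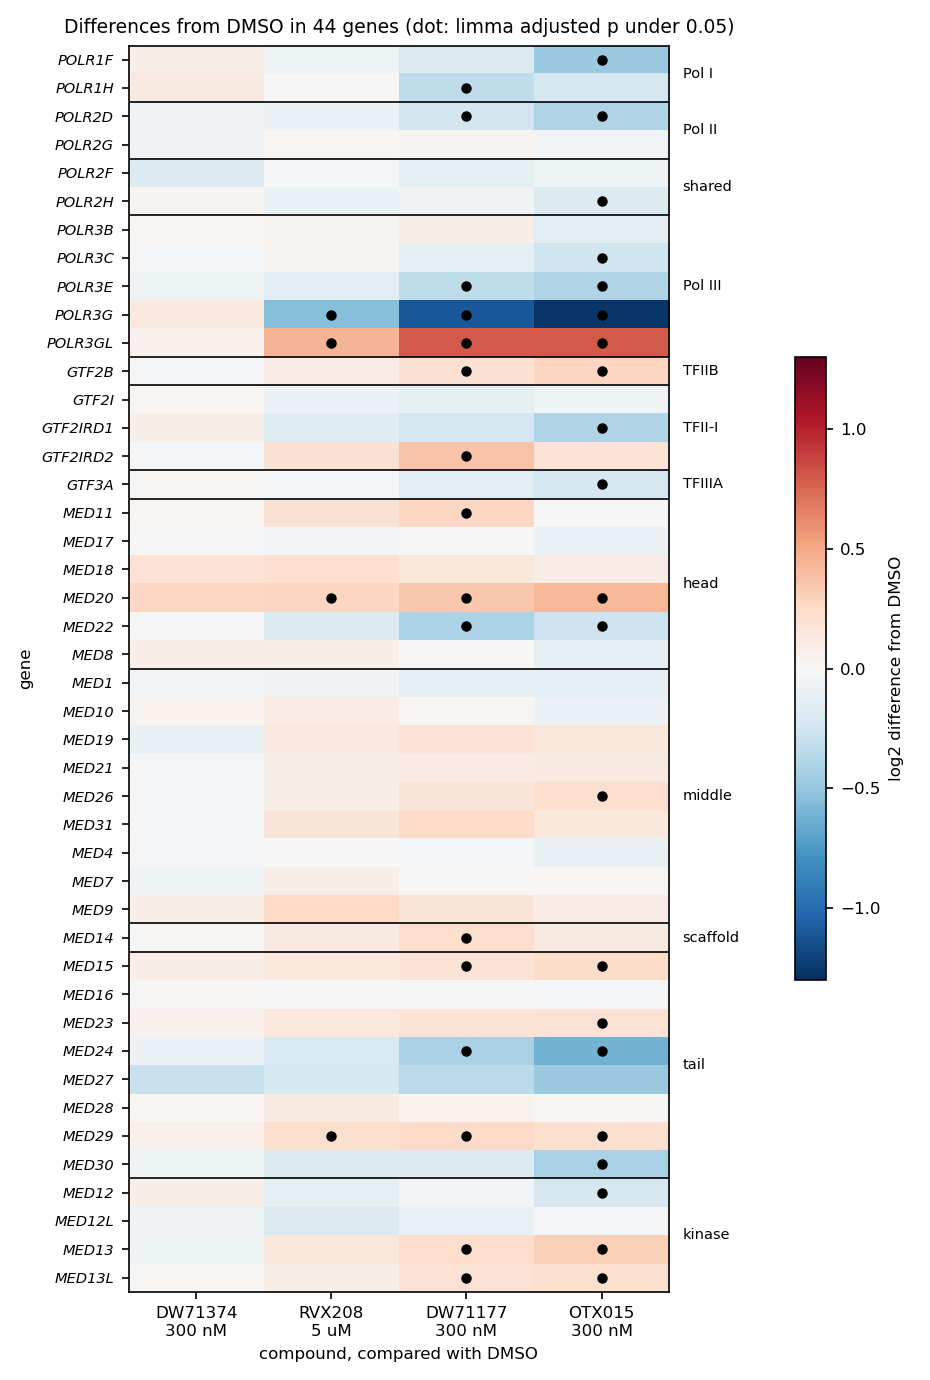
Log2 difference from DMSO of the 44 genes (rows, grouped by complex) under each compound (columns), with red for higher, blue for lower and a dot where the limma adjusted p was under 0.05. The deepest blue and red cells are POLR3G and POLR3GL, the DW71374 column has no dot, and OTX015 has 21.

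The largest changes among the 44 genes belonged to a pair of polymerase III paralogues that moved in opposite directions. POLR3G and POLR3GL encode alternative forms of the same subunit, so a polymerase III molecule holds one or the other; POLR3G is known for its high level in stem cells and tumour lines, and POLR3GL for its presence in most adult tissues. POLR3G signals were 5.75, 6.07 and 5.75 in DMSO and 5.95, 5.96 and 6.04 with DW71374. They were 5.21, 5.33 and 5.37 with RVX208, 4.59, 4.93 and 4.73 with DW71177 and 4.48, 4.70 and 4.60 with OTX015. Every RVX208, DW71177 and OTX015 array lay below every DMSO array, while the DW71374 arrays lay among them. POLR3G fell with OTX015 by 1.27 ± 0.10, an estimated 2.41-fold (adjusted p 6.4e-07), and with DW71177 by 1.11 ± 0.10, an estimated 2.15-fold (adjusted p 4.5e-06). With RVX208 it fell by 0.56 ± 0.10, or 1.47-fold (adjusted p 0.0048). The first 2 folds are point estimates with the SE given and not limits of an interval. They are at best lower bounds only in that the group means of 4.59 and 4.75 were under 5, with the background level unknown. Its difference ranked 46 from the lowest of 14812 genes with OTX015, 46 with DW71177 and 100 with RVX208.

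POLR3GL signals were 5.59, 5.79 and 5.63 in DMSO and 5.70, 5.78 and 5.68 with DW71374. They were 6.13, 6.13 and 6.07 with RVX208, 6.47, 6.47 and 6.46 with DW71177 and 6.34, 6.53 and 6.54 with OTX015. Again the DW71374 arrays overlapped DMSO and the other 9 compound arrays did not. POLR3GL rose by 0.80 ± 0.069 with OTX015 (1.74-fold, adjusted p 1.1e-06), by 0.80 ± 0.069 with DW71177 (1.74-fold, adjusted p 2.6e-06) and by 0.44 ± 0.069 with RVX208 (1.36-fold, adjusted p 0.0015). Among all genes its difference ranked 136 from the highest with OTX015, 87 with DW71177 and 191 with RVX208. Taken within each array and set to 0 in DMSO, the POLR3GL signal minus the POLR3G signal shifted by 2.07 ± 0.06 (SD, n = 3) with OTX015, 1.90 ± 0.17 with DW71177, 1.0 ± 0.11 with RVX208 and -0.07 ± 0.09 with DW71374. The first 2 shifts hold the POLR3G falls to means under 5 and are at best lower bounds in the same sense. These are changes of the balance within an array and not a ratio of the transcripts, because the probes of different genes are not on 1 scale. The calls on both genes held in every alternative fit, which included leaving out each array in turn.

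**Figure D2:**
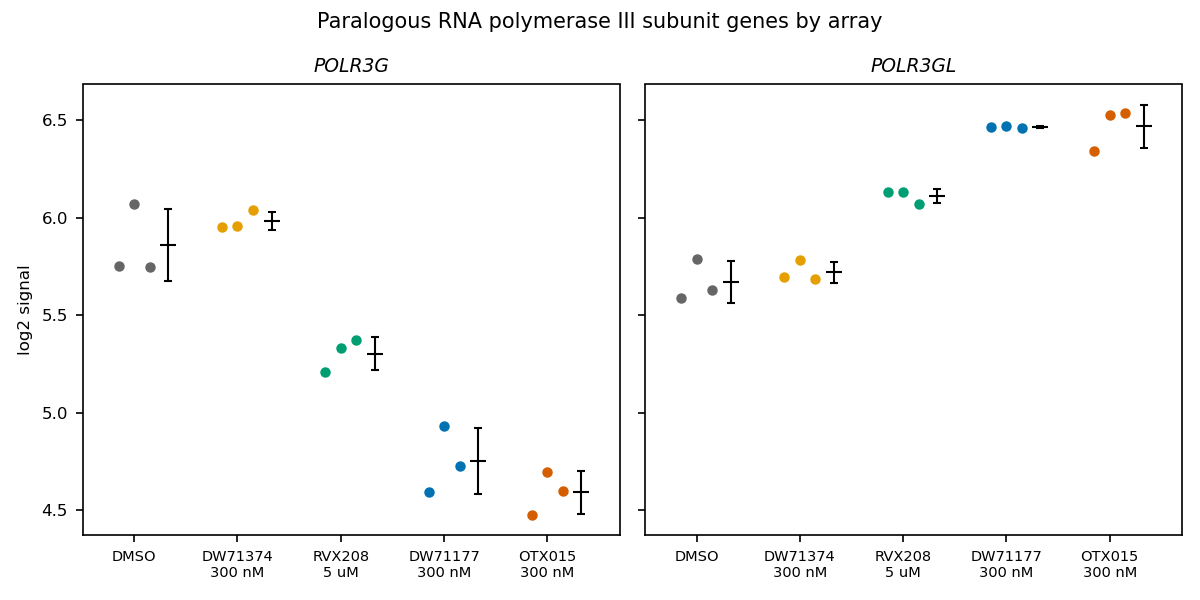
Log2 signal of POLR3G (left) and POLR3GL (right) in each of the 15 arrays by group; points are arrays and bars are the mean ± SD of 3. The lowest OTX015 array is at 4.48 for POLR3G and the highest at 6.54 for POLR3GL, RVX208 lies between, and DW71374 sits with DMSO.

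The sequence before the start of POLR3GL is shown because this gene rose while its paralogue fell. It is the RefSeq promoter stretch of 250 bases on the plus strand of chromosome 1, chr1:145964440-145964689 in GRCh38.p14, in lower case because the motif searched for below, CACGTG, is not among its letters.
POLR3GL: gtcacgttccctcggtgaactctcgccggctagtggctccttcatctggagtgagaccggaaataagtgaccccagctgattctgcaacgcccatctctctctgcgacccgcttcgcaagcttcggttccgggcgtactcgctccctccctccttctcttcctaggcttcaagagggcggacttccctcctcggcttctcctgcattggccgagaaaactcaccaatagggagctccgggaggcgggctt

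The other polymerase III subunits moved less. POLR3E, a peripheral subunit, had signals of 7.11, 7.10 and 7.20 in DMSO and 7.06, 7.13 and 7.04 with DW71374. It had 7.02, 7.01 and 6.95 with RVX208, 6.83, 6.83 and 6.76 with DW71177 and 6.68, 6.67 and 6.88 with OTX015, so the RVX208 arrays lay just below DMSO and the DW71177 and OTX015 arrays lower still. POLR3E fell by 0.39 ± 0.06 with OTX015 (adjusted p 0.00034) and by 0.33 ± 0.06 with DW71177 (adjusted p 0.0019), and its RVX208 difference of -0.14 ± 0.064 was not called (adjusted p 0.23). POLR3C, which sits with POLR3G in the trimer used at initiation, fell with OTX015 (-0.26 ± 0.061, adjusted p 0.0047) and had -0.12 ± 0.061 with DW71177 (adjusted p 0.20). POLR3B, the second-largest subunit, was not called with either (-0.13 ± 0.075 and 0.09 ± 0.075); without OTX015 replicate 3 its OTX015 difference was -0.21 and called. GTF3A (TFIIIA), the zinc-finger factor that brings polymerase III to the genes of the smallest ribosomal RNA, read 7.69, 7.77 and 7.67 in DMSO and 7.41, 7.57 and 7.44 with OTX015. It read 7.57, 7.61 and 7.53 with DW71177, 7.67, 7.74 and 7.75 with DW71374 and 7.69, 7.64 and 7.74 with RVX208. Only the OTX015 difference of -0.23 ± 0.059 was called (adjusted p 0.0097), while the difference between DW71177 and OTX015 was 0.09 with a 95% interval of -0.03 to 0.22.

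Of the polymerase I subunits, POLR1F passed the test with OTX015 and POLR1H with DW71177. POLR1F, a stalk subunit that contacts the initiation factor RRN3, had signals of 5.50, 5.46 and 5.38 in DMSO, 5.50, 5.49 and 5.58 with DW71374 and 5.37, 5.54 and 5.23 with RVX208. It had 5.04, 5.36 and 5.39 with DW71177 and 4.63, 5.13 and 5.13 with OTX015, with replicate 1 the lowest array in both. POLR1F fell by 0.49 ± 0.13 with OTX015 (adjusted p 0.012); without OTX015 replicate 1 the difference was -0.32 and not called. With DW71177 it was -0.19 ± 0.13 (adjusted p 0.40). POLR1H, the subunit for RNA cleavage, had 5.16, 5.06 and 5.14 in DMSO, 5.29, 5.33 and 5.10 with DW71374 and 5.12, 5.17 and 5.05 with RVX208. It had 4.64, 4.77 and 4.96 with DW71177 and 4.84, 4.83 and 5.02 with OTX015, every one of these 6 arrays below DMSO. POLR1H fell by 0.33 ± 0.09 with DW71177 (adjusted p 0.016), a call lost without DMSO replicate 1 (-0.31), DMSO replicate 3 (-0.32) or DW71177 replicate 1 (-0.25). With OTX015 it was -0.22 ± 0.089 (adjusted p 0.088), which without OTX015 replicate 3 was -0.29 and called. The difference between the compounds was 0.30 for POLR1F (95% interval 0.02 to 0.58) and -0.11 for POLR1H (95% interval -0.30 to 0.08), and neither was called. The POLR1F mean with OTX015 (4.96) and the POLR1H means with DW71177 (4.79) and OTX015 (4.90) were under 5. Differences that hold these means are at best lower bounds.

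Of the polymerase II genes, POLR2D fell and its partner did not pass the test. POLR2D and POLR2G encode the 2 subunits of the dissociable stalk of polymerase II. POLR2D signals were 7.53, 7.67 and 7.67 in DMSO, 7.65, 7.50 and 7.58 with DW71374 and 7.50, 7.58 and 7.56 with RVX208. They were 7.39, 7.39 and 7.38 with DW71177 and 7.19, 7.26 and 7.27 with OTX015, and neither of these groups overlapped DMSO or the other. POLR2D fell by 0.39 ± 0.06 with OTX015 (adjusted p 0.00019) and by 0.24 ± 0.06 with DW71177 (adjusted p 0.010). POLR2G was -0.04 ± 0.059 with OTX015 and 0.04 ± 0.059 with DW71177, with 95% intervals of -0.17 to 0.09 and -0.09 to 0.17. Among the subunits common to the 3 enzymes, POLR2H read 6.35, 6.27 and 6.36 in DMSO and 6.21, 6.15 and 6.10 with OTX015. It read 6.27, 6.27 and 6.30 with DW71177, 6.44, 6.35 and 6.28 with DW71374 and 6.22, 6.27 and 6.22 with RVX208. POLR2H fell with OTX015 (-0.17 ± 0.057, adjusted p 0.039), and the call was lost without DMSO replicate 1 (-0.16), DMSO replicate 3 (-0.16), OTX015 replicate 2 (-0.17) or OTX015 replicate 3 (-0.15). It was also lost after quantile normalization (-0.14), after centring on the median, with a replicate block and with the 6 arrays alone. POLR2F was dim and was called in no comparison with DMSO.

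**Figure D3:**
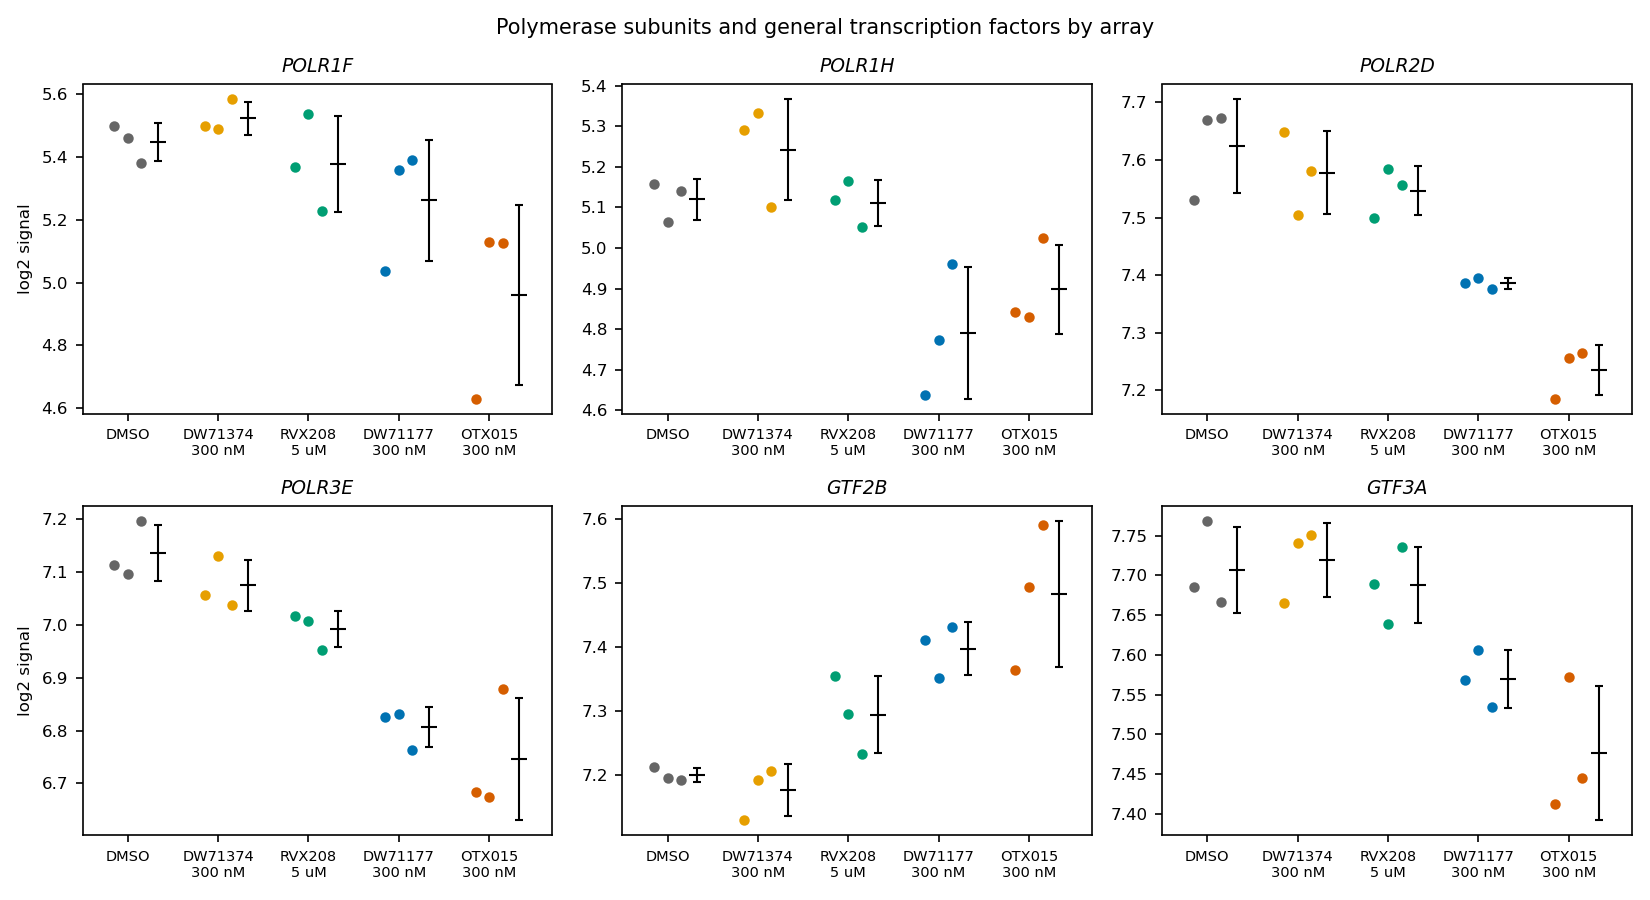
Log2 signal by array and group for POLR1F, POLR1H, POLR2D, POLR3E, GTF2B and GTF3A; points are arrays, bars the mean ± SD of 3, and each panel has its own axis. POLR2D and POLR3E step down and GTF2B steps up with DW71177 and OTX015, and 1 OTX015 array at 4.63 stands below the other arrays of POLR1F.

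GTF2B encodes TFIIB, which bridges the TATA-binding protein and polymerase II. Its signals were 7.21, 7.19 and 7.19 in DMSO, 7.13, 7.19 and 7.21 with DW71374 and 7.35, 7.30 and 7.23 with RVX208. They were 7.41, 7.35 and 7.43 with DW71177 and 7.36, 7.49 and 7.59 with OTX015, all above DMSO. GTF2B rose by 0.28 ± 0.063 with OTX015 (1.22-fold, adjusted p 0.0036) and by 0.20 ± 0.063 with DW71177 (adjusted p 0.040). The DW71177 call was lost without DMSO replicate 1 (0.20), DMSO replicate 2 (0.20), DMSO replicate 3 (0.19), DW71177 replicate 1 (0.19) or DW71177 replicate 3 (0.18).

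The TFII-I family, named after an initiator-binding factor, did not move as a unit. GTF2IRD1 read 5.40, 5.57 and 5.50 in DMSO, 5.61, 5.46 and 5.61 with DW71374 and 5.33, 5.29 and 5.38 with RVX208. It read 5.17, 5.39 and 5.23 with DW71177 and 4.98, 5.10 and 5.23 with OTX015, and it fell with OTX015 (-0.39 ± 0.081, adjusted p 0.0024). Its DW71177 difference of -0.23 ± 0.081 was not called (adjusted p 0.067), but was -0.29 and called without DW71177 replicate 2. GTF2IRD2 read 5.67, 5.64 and 5.56 in DMSO, 5.75, 5.53 and 5.55 with DW71374 and 5.80, 5.78 and 5.89 with RVX208. It read 5.95, 6.18 and 5.86 with DW71177 and 5.73, 5.78 and 5.88 with OTX015, the DW71177 arrays being the highest by mean. GTF2IRD2 rose with DW71177 (0.38 ± 0.086, adjusted p 0.0062) and had 0.18 ± 0.086 with OTX015 (adjusted p 0.17), a difference between the compounds of 0.20 (95% interval 0.01 to 0.38, adjusted p 0.33). GTF2I itself was -0.07 ± 0.090 with OTX015 and -0.13 ± 0.090 with DW71177, neither called.

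In Mediator the tail held the strongest fall. MED24, a tail subunit used by nuclear receptors and other activators, had signals of 7.54, 7.62 and 7.68 in DMSO and 7.47, 7.55 and 7.59 with DW71374. It had 7.42, 7.44 and 7.39 with RVX208, 7.22, 7.19 and 7.17 with DW71177 and 6.96, 6.98 and 7.04 with OTX015, so the last 3 groups overlapped neither DMSO nor each other. MED24 fell by 0.62 ± 0.06 with OTX015 (1.54-fold, adjusted p 1.8e-06) and by 0.42 ± 0.06 with DW71177 (1.34-fold, adjusted p 9.8e-05). The RVX208 difference of -0.20 ± 0.056 missed the threshold (adjusted p 0.051) and without DMSO replicate 1 was -0.24 and called. MED30, a subunit found in animals and placed with the tail here, read 5.64, 5.90 and 5.68 in DMSO, 5.62, 5.63 and 5.80 with DW71374 and 5.60, 5.43 and 5.64 with RVX208. It read 5.44, 5.64 and 5.60 with DW71177 and 5.23, 5.21 and 5.52 with OTX015. MED30 fell with OTX015 (-0.42 ± 0.10, adjusted p 0.0065) and had -0.18 ± 0.10 with DW71177 (adjusted p 0.28).

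Other tail genes rose. MED29 signals were 7.93, 8.06 and 7.99 in DMSO, 8.05, 8.11 and 8.02 with DW71374 and 8.25, 8.19 and 8.23 with RVX208. They were 8.19, 8.24 and 8.31 with DW71177 and 8.17, 8.24 and 8.20 with OTX015, and none of these 9 RVX208, DW71177 and OTX015 arrays fell within the DMSO range. MED29 rose by 0.21 ± 0.056 with OTX015 (adjusted p 0.013), 0.25 ± 0.056 with DW71177 (adjusted p 0.0049) and 0.23 ± 0.056 with RVX208 (adjusted p 0.027). The OTX015 call was lost without DMSO replicate 1 (0.18). The RVX208 call was lost without DMSO replicate 1 (0.20) or 3 (0.22) and without RVX208 replicate 1 (0.21), 2 (0.25) or 3 (0.22). MED15, the tail subunit that binds several activators, read 5.22, 5.29 and 5.25 in DMSO, 5.35, 5.35 and 5.32 with DW71374 and 5.39, 5.42 and 5.36 with RVX208. It read 5.47, 5.39 and 5.43 with DW71177 and 5.52, 5.46 and 5.51 with OTX015, every compound array above every DMSO array. MED15 rose by 0.24 ± 0.050 with OTX015 (adjusted p 0.0021) and 0.17 ± 0.050 with DW71177 (adjusted p 0.023), and the DW71177 call was lost without DMSO replicate 1 (0.16) or 3 (0.17) or DW71177 replicate 1 (0.15) or 3 (0.17). MED23 rose with OTX015 (0.19 ± 0.061, adjusted p 0.038), a call lost without DMSO replicate 1 (0.18), DMSO replicate 2 (0.17), OTX015 replicate 1 (0.18) or OTX015 replicate 3 (0.16). With DW71177 MED23 had 0.18 ± 0.061 (adjusted p 0.054), which became 0.21 and called without DW71177 replicate 1.

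In the head, MED20 was higher than DMSO in every compound array. MED20 sits with MED18 in the movable part of the head that contacts polymerase II. Its signals were 5.25, 5.40 and 5.37 in DMSO and 5.66, 5.55 and 5.62 with DW71374. They were 5.62, 5.62 and 5.62 with RVX208, 5.75, 5.69 and 5.63 with DW71177 and 5.79, 5.73 and 5.81 with OTX015. MED20 rose by 0.43 ± 0.059 with OTX015 (1.35-fold, adjusted p 7.2e-05), 0.35 ± 0.059 with DW71177 (adjusted p 0.00071) and 0.28 ± 0.059 with RVX208 (adjusted p 0.013), the last call being lost without DMSO replicate 1 (0.23). DW71374 gave 0.26 ± 0.059, the smallest unadjusted p of the 44 genes in that comparison (0.00058) and not called after adjustment (0.60). These differences all rest on the same 3 DMSO arrays. Set against the DW71374 arrays, OTX015 was higher by 0.17 and not called (adjusted p 0.051), whereas POLR3G, POLR3GL and MED24 were called in that comparison too.

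MED22 and MED11, which pair with each other in the head, did not change together. MED22 read 6.50, 6.50 and 6.57 in DMSO, 6.60, 6.42 and 6.54 with DW71374 and 6.32, 6.35 and 6.35 with RVX208. It read 6.17, 5.92 and 6.25 with DW71177 and 6.22, 6.21 and 6.32 with OTX015, all below DMSO. MED22 fell with DW71177 (-0.41 ± 0.080, adjusted p 0.0021) and with OTX015 (-0.27 ± 0.080, adjusted p 0.021), and the OTX015 call was lost without DMSO replicate 3, OTX015 replicate 1 or OTX015 replicate 2 (-0.25 in each). The OTX015 call on MED22 was also lost after quantile normalization (-0.23). MED11 read 6.97, 7.04 and 6.91 in DMSO, 6.93, 7.08 and 6.97 with DW71374 and 7.31, 7.14 and 7.07 with RVX208. It read 7.23, 7.34 and 7.17 with DW71177 and 6.93, 7.12 and 6.85 with OTX015, the OTX015 arrays spanning the DMSO range. MED11 rose with DW71177 (0.27 ± 0.085, adjusted p 0.037) and had -0.01 ± 0.085 with OTX015. The DW71177 call was lost without DMSO replicate 1 (0.27) or 3 (0.24) or DW71177 replicate 1 (0.28) or 2 (0.22).

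**Figure D4:**
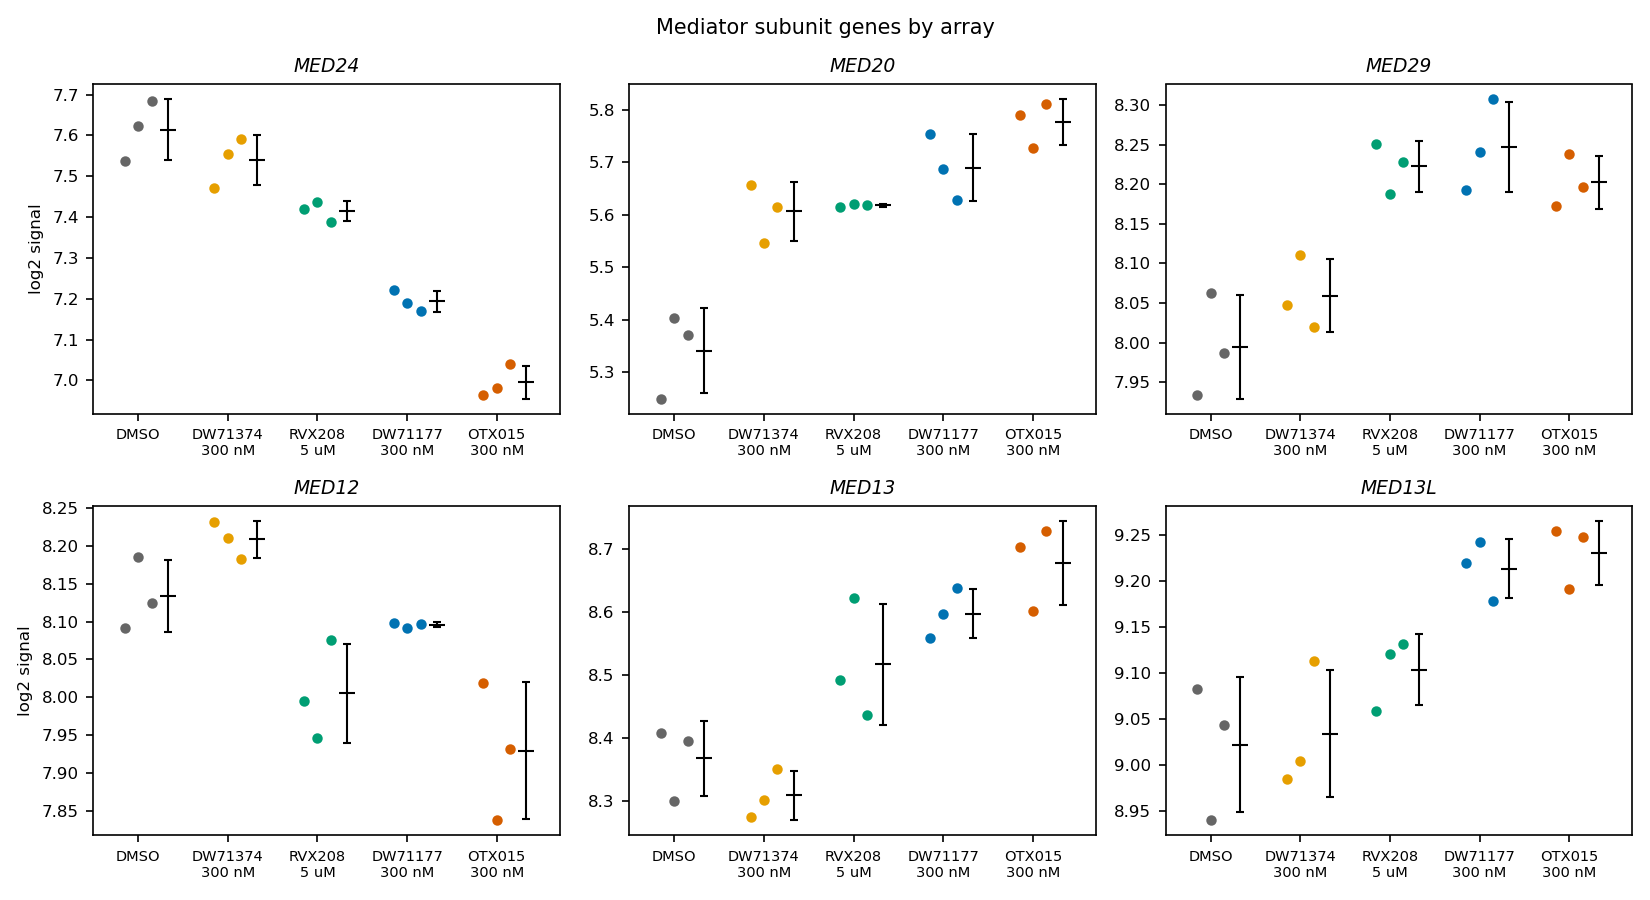
Log2 signal by array and group for MED24, MED20, MED29, MED12, MED13 and MED13L; points are arrays, bars the mean ± SD of 3, and each panel has its own axis. MED24 descends from 7.68 at the highest DMSO array to 6.96 at the lowest OTX015 array, and the 3 DMSO arrays are the lowest of all 15 for MED20.

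Of the scaffold and middle genes, MED14 was called higher with DW71177 and MED26 with OTX015, and neither was called between these compounds. MED14, the scaffold that joins head, middle and tail, read 8.28, 8.37 and 8.21 in DMSO, 8.28, 8.31 and 8.31 with DW71374 and 8.40, 8.45 and 8.35 with RVX208. It read 8.50, 8.55 and 8.47 with DW71177 and 8.44, 8.39 and 8.37 with OTX015. MED14 rose with DW71177 (0.22 ± 0.056, adjusted p 0.010; 0.19 and not called without DMSO replicate 3) and had 0.12 ± 0.056 with OTX015 (adjusted p 0.16). Of the 9 middle genes, 1 was called with OTX015, against 25.7% of all genes, 0 with DW71177, against 19.8%, and 0 with RVX208, against 3.41% higher and 3.11% lower. Only MED7 and MED19 of these genes were dim. Of the 6736 genes of mean 5 or more fitted alone, 3777 were called with OTX015, 3250 with DW71177 and 1576 with RVX208. The middle genes called in that fit were MED1 and MED26 with OTX015, MED1, MED26 and MED31 with DW71177, and MED9 with RVX208. An unadjusted limma p under 0.05 was seen for 2 of the 9 with OTX015, 3 with DW71177 and 1 with RVX208, against 33.4%, 29.5% and 19.8% of all genes. The middle gene called in the fit of all genes was MED26, which links Mediator to elongation factors. It read 6.42, 6.50 and 6.58 in DMSO, 6.39, 6.52 and 6.52 with DW71374 and 6.57, 6.53 and 6.64 with RVX208. It read 6.59, 6.65 and 6.78 with DW71177 and 6.67, 6.69 and 6.80 with OTX015, and rose with OTX015 by 0.22 ± 0.070 (adjusted p 0.030). That call was lost without DMSO replicate 1 (0.18), DMSO replicate 2 (0.22) or OTX015 replicate 3 (0.18). With DW71177 MED26 had 0.17 (adjusted p 0.11), uncalled but called without dim genes or with a replicate block. MED1, the nuclear receptor-binding subunit, had -0.13 ± 0.052 with OTX015 and -0.13 ± 0.052 with DW71177, both uncalled (adjusted p 0.092 and 0.099) but called when dim genes were left out of the fit. MED9 was 0.25 ± 0.089 with RVX208 and 0.17 ± 0.089 with DW71177, both uncalled, and without DMSO replicate 1 these became 0.36 and 0.27 and were called. The DMSO mean of MED9 (4.93) was under 5.

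The kinase module changed in both directions. MED13 and its paralogue MED13L, alternative subunits that tether the module to the core, rose with OTX015 and DW71177, and MED12, which activates the kinase, fell with OTX015. MED13 signals were 8.41, 8.30 and 8.40 in DMSO, 8.27, 8.30 and 8.35 with DW71374 and 8.49, 8.62 and 8.44 with RVX208. They were 8.56, 8.60 and 8.64 with DW71177 and 8.70, 8.60 and 8.73 with OTX015. MED13 rose by 0.31 ± 0.063 with OTX015 (1.24-fold, adjusted p 0.0019) and 0.23 ± 0.063 with DW71177 (adjusted p 0.018). MED13L signals were 9.08, 8.94 and 9.04 in DMSO, 8.98, 9.0 and 9.11 with DW71374 and 9.06, 9.12 and 9.13 with RVX208. They were 9.22, 9.24 and 9.18 with DW71177 and 9.25, 9.19 and 9.25 with OTX015, and MED13L rose by 0.21 ± 0.058 with OTX015 (adjusted p 0.015) and 0.19 ± 0.058 with DW71177 (adjusted p 0.031). In both groups all 3 arrays of each paralogue lay above DMSO.

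MED12 signals were 8.09, 8.19 and 8.12 in DMSO, 8.23, 8.21 and 8.18 with DW71374 and 7.99, 7.95 and 8.08 with RVX208. They were 8.10, 8.09 and 8.10 with DW71177 and 8.02, 7.84 and 7.93 with OTX015, the DW71177 arrays lying at the lower end of DMSO. MED12 fell by 0.20 ± 0.06 with OTX015 (adjusted p 0.019) and had -0.04 ± 0.059 with DW71177 (adjusted p 0.75). Its paralogue MED12L was dim at 2.96, 2.80 and 2.82 in DMSO, 2.82, 2.92 and 2.72 with DW71374 and 2.49, 2.70 and 2.83 with RVX208. It had 2.82, 2.69 and 2.82 with DW71177 and 2.83, 2.89 and 2.82 with OTX015, and was not called in any group. Of the module's kinases, CDK19 rose under OTX015, DW71177 and RVX208, by 0.52 ± 0.052, 0.47 ± 0.052 and 0.39 ± 0.052 in that order (adjusted p 4.4e-06, 2.2e-05 and 0.0006), whereas its paralogue CDK8 had 0.06 ± 0.054, 0.04 ± 0.054 and 0.01 ± 0.054 and was not called. Without DMSO replicate 2 the OTX015 call on MED12 (-0.18) and on MED13L (0.17) and the DW71177 call on MED13 (0.20) and on MED13L (0.15) were lost. The MED12 call was also lost without OTX015 replicate 2 (-0.16), the DW71177 call on MED13 without DW71177 replicate 3 (0.21), and that on MED13L without DMSO replicate 3 (0.20) or DW71177 replicate 1 (0.19) or 2 (0.18).

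Of the 21 calls with OTX015, 12 held in every alternative fit (7 lower and 5 higher): POLR3G, MED24, MED30, POLR2D, POLR3E, GTF2IRD1 and POLR3C fell and POLR3GL, MED20, MED13, GTF2B and MED15 rose. Of the 16 calls with DW71177, 8 held (4 lower and 4 higher): POLR3G, MED24, MED22 and POLR3E fell and POLR3GL, GTF2IRD2, MED20 and MED29 rose. With RVX208, POLR3G and POLR3GL held of 4 calls. The 19 genes called in no comparison with DMSO were GTF2I, POLR2F, POLR2G, POLR3B, MED12L, the head genes MED8, MED17 and MED18, the middle genes MED1, MED4, MED7, MED9, MED10, MED19, MED21 and MED31, and the tail genes MED16, MED27 and MED28. With OTX015 their differences ran from -0.48 for dim MED27 and -0.13 for POLR3B to 0.15 for MED31. With DW71177 they ran from -0.35 for MED27 and -0.13 for GTF2I to 0.25 for MED31.

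DW71177 and OTX015 were compared directly, as both were given at 300 nM for 24 h; this is 1 of 3 compound pairs compared, each over all genes. None of the 44 genes was called, against 1.26% of all genes, and 10 of the 44 had an unadjusted limma p under 0.05, against 13.7%. The smallest adjusted p was 0.11, for MED24, which was higher with DW71177 by 0.20 ± 0.056 (95% interval 0.08 to 0.32). When dim genes were left out, MED24 and MED11 were called, and with a variance trend in the fit MED24 alone. MED11 was 0.28 ± 0.085 (interval 0.10 to 0.46) and MED12 0.17 ± 0.059 (interval 0.04 to 0.29). For POLR3G the difference was 0.16 with an interval of -0.06 to 0.38, and for POLR3GL -0.00 with -0.15 to 0.14. The 95% intervals lay inside 1.25-fold for 36 genes and within 1.5-fold for 43, the exception being dim MED27. The median difference of the 44 genes was 0.06, against 0.0123 over all genes.

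**Figure D5:**
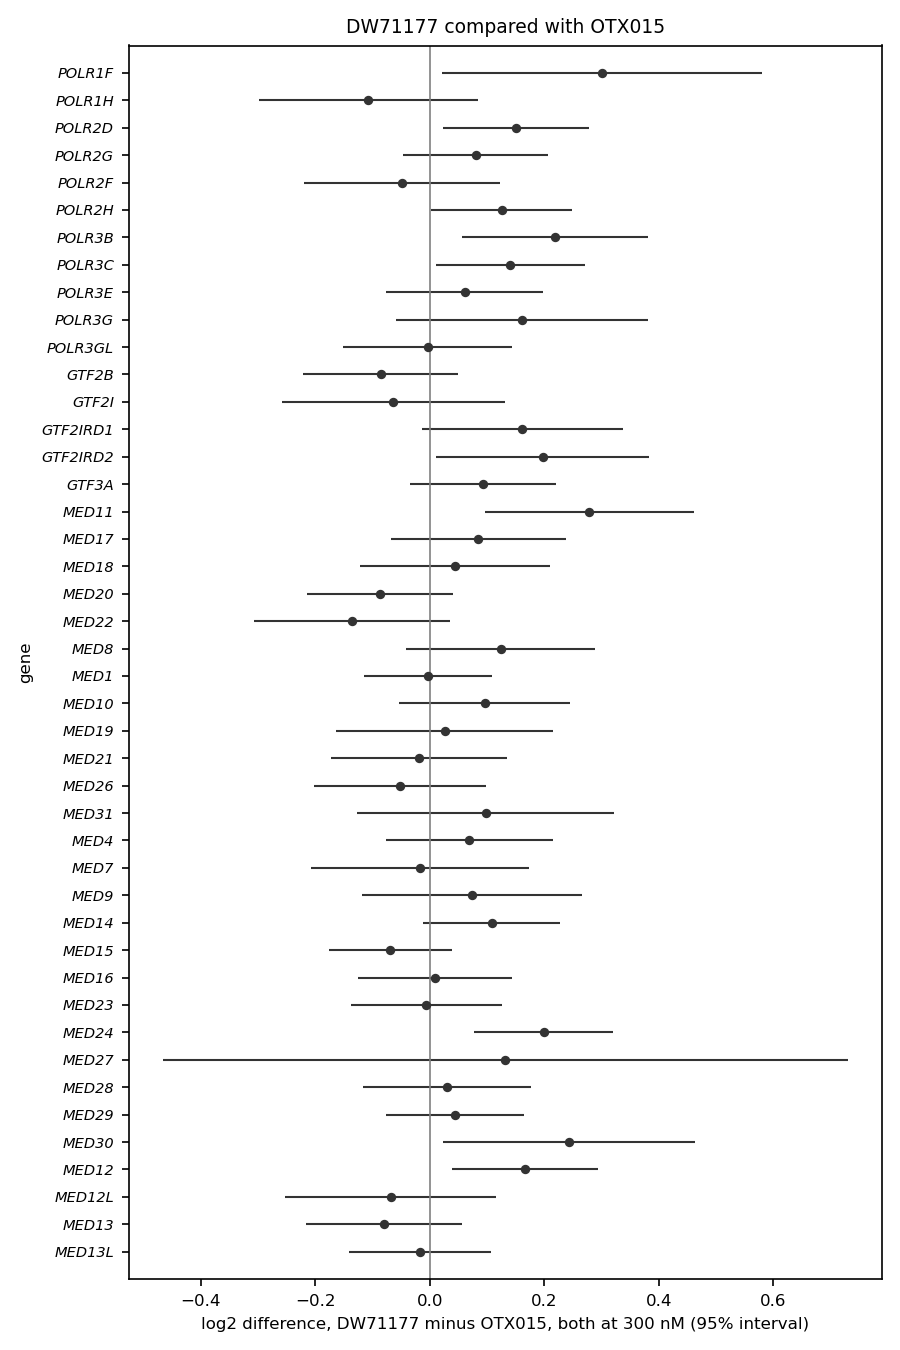
Log2 difference between DW71177 and OTX015, both at 300 nM, for each of the 44 genes; points are the difference and lines the 95% interval of the limma fit. Most intervals cross 0, MED24 at 0.20 and MED11 at 0.28 have the smallest p-values, and MED27 has the widest interval.

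DW71374 at the same dose and time left the 44 genes near DMSO. None was called, 3 had an unadjusted limma p under 0.05 (MED20, MED18 and POLR2F), and over all genes 0% were called and 4.63% had such an unadjusted p. The 95% interval lay within 1.25-fold for 38 of the 44 genes, within 1.5-fold for 43 and within 2-fold for 44. For POLR3G the interval was -0.10 to 0.35 and for POLR3GL -0.10 to 0.20. MED18, the head partner of MED20, was 0.19 ± 0.077 (adjusted p 0.99) and POLR2F -0.18 ± 0.080 (adjusted p 0.99).

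Compared directly with OTX015, the DW71374 arrays were higher in 13 genes and lower in 6, against 14% and 11.1% of all genes; after quantile normalization the split was 11 and 9. Without DW71374 replicate 1 or OTX015 replicate 3 the number lower was 3. POLR3G was higher with DW71374 by 1.39 ± 0.10 and POLR3GL was -0.75 ± 0.069, and MED24 was higher by 0.54 ± 0.056. MED12 was higher by 0.28 ± 0.059 (adjusted p 0.0026) and POLR1F by 0.56 ± 0.13 (adjusted p 0.0048). DW71177 compared with DW71374 gave 8 genes higher and 7 lower, against 9.98% and 9.51% of all genes. POLR3G was -1.23 ± 0.10, POLR3GL 0.75 ± 0.069 and MED24 -0.35 ± 0.056 there, and POLR1H -0.45 ± 0.089 (adjusted p 0.0021). The number higher was 3 without DW71374 replicate 1, 4 without DW71177 replicate 2, and 5 without DW71177 replicate 1 or 3 or DW71374 replicate 2. Both pairs share their arrays with the comparisons to DMSO or to each other. The POLR3G, POLR1F and POLR1H differences given for them each hold 1 group mean under 5 and are at best lower bounds.

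RVX208 was given at 5 uM, so its values stand beside those of the other compounds with no test between them. It raised POLR3GL, MED20 and MED29 and lowered POLR3G, and 16 of the 44 genes had an unadjusted limma p under 0.05, against 19.8% of all genes. The POLR3G difference was -0.56, beside -1.27 with OTX015 and -1.11 with DW71177 at 300 nM. For MED24 it was -0.20, beside -0.62 and -0.42, and for POLR2D -0.08, beside -0.39 and -0.24. For MED29 it was 0.23, beside 0.21 and 0.25. MED18 with RVX208 was 0.22 ± 0.077 (adjusted p 0.12) and MED13 0.15 ± 0.063 (adjusted p 0.20), neither called. Leaving dim genes out of the fit gave 6 higher and 2 lower.

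Because MYC fell with 3 compounds and binds the E-box CACGTG with its partner MAX, these 6 letters, which read the same on both strands, were searched in the 250 bases before the start of each gene in RefSeq (GRCh38.p14). Of the 44 genes, 33 had an entry and 3 of them held the motif (9.09%), against 1242 of 15843 protein-coding genes (7.84%). POLR3G was among the 11 genes without an entry. The 3 genes are shown because they did not move alike: GTF2B and MED13L rose with OTX015 and POLR3C fell. Each stretch of 60 bases is written 5′ to 3′ along the gene's strand with the motif in capitals. They lie at chr1:88891648-88891707 (minus strand) for GTF2B, chr12:116277713-116277772 (minus strand) for MED13L and chr1:145823977-145824036 (plus strand) for POLR3C. The motif stood 113 bases before the start in GTF2B, 52 in MED13L and 196 in POLR3C. A match of letters is a description of the window and not evidence of binding.
GTF2B: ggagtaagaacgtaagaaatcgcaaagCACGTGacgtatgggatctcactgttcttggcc
MED13L: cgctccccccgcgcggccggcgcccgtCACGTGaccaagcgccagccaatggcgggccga
POLR3C: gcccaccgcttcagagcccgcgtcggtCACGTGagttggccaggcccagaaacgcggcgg

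Genes that work with these complexes were taken from lists by function. The counts below are read against the shares of all genes called, which were 11.2% higher and 14.5% lower with OTX015, 9.95% and 9.88% with DW71177, and 3.41% and 3.11% with RVX208. Most of the listed genes averaged above 5. Among the 6736 genes of mean 5 or more fitted alone, 1637 were higher and 2140 lower with OTX015, 1640 and 1610 with DW71177, and 839 and 737 with RVX208. The list counts below come from the fit of all 14812 genes, so the numbers of these brighter genes are not a like measure. A count above the shares over all genes is therefore not by itself an excess. Of 4 measured genes of the polymerase I machinery, 2 fell with OTX015 (14.5% of all genes) and with DW71177 (9.88%) and 0 rose. NOLC1, a nucleolar protein that binds polymerase I, had -0.86 ± 0.060 and -0.74 ± 0.060, and TCOF1 (treacle), which brings polymerase I to ribosomal DNA, had -0.84 ± 0.091 and -0.65 ± 0.091. The initiation factor RRN3 was -0.18 ± 0.094 with OTX015 and not called. Of 2 measured polymerase III factors, MAF1 (its repressor) and SSB (La, which binds its transcripts), 0 were called with OTX015, DW71177 or RVX208, and 1 had an unadjusted limma p under 0.05 with OTX015 and 1 with DW71177. TBP, which serves all 3 polymerases, fell with OTX015 (-0.24 ± 0.065, adjusted p 0.012), and its relative TBPL1 was not called. Of 5 kinases and cyclins of TFIIH and Mediator, CDK19 and CCNH, the cyclin of TFIIH, rose with OTX015 and DW71177, CCNH by 0.35 ± 0.088 and 0.32 ± 0.088, and 0 fell. Of 2 mitochondrial genes 1 was called: POLRMT, the mitochondrial RNA polymerase, had -0.48 ± 0.076 with OTX015 and -0.30 ± 0.076 with DW71177, both called.

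Among 22 genes of pausing and elongation, 5 rose and 5 fell with OTX015 (11.2% and 14.5% of all genes), 4 and 4 with DW71177 (9.95% and 9.88%), and 2 and 1 with RVX208 (3.41% and 3.11%). HEXIM1, the inhibitor of the kinase P-TEFb, rose by 1.65 ± 0.068, 1.11 ± 0.068 and 0.74 ± 0.068 in those groups, and SSRP1, a subunit of the histone chaperone FACT, was -0.81 ± 0.052, -0.51 ± 0.052 and -0.29 ± 0.052, all called. Its partner SUPT16H had -0.37 ± 0.050 with OTX015 and -0.28 ± 0.050 with DW71177, both called. Of 10 polymerase II assembly and tail phosphatase genes, 3 rose and 4 fell with OTX015, against 11.2% and 14.5% of all genes: RPAP3, an assembly cochaperone, rose by 0.43 ± 0.075 and GPN1, a GTPase needed for nuclear import of polymerase II, had -0.42 ± 0.063. With DW71177 the counts were 2 and 1, against 9.95% and 9.88%. Integrator, which ends unproductive polymerase II transcription, had 3 of 11 genes higher and 2 lower with OTX015, against 11.2% and 14.5% of all genes, and 3 and 1 with DW71177, against 9.95% and 9.88%. INTS6 rose by 0.51 ± 0.068 and 0.31 ± 0.068, and INTS3 had -0.42 ± 0.059 and -0.31 ± 0.059 (all called). The largest DW71177 difference of the 11 was that of INTS7 (0.44), with means of 7.77 in DMSO, 8.21 with DW71177 and 8.04 with OTX015. With DW71374 no gene of these lists was called, as no gene was called over the whole array.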

How the data were processed

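RNA of 15 samples was measured on the Affymetrix Human Gene 2.0 ST array, per the labels. The authors deposited 1 table of log2 signals for 44629 features, whose scale was inferred from the values. How they corrected, normalized and annotated the arrays is not given in the sources used here. The array medians were near equal (3.72 to 3.79), from which the arrays were taken as scaled together, though the medians alone do not show this. Of the features, 15835 named 1 gene in the platform annotation, and the feature of highest mean was used per gene, which gave 14812 genes. Arrays give no counting depth, and their number limits the precision.

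Groups came from the sample titles. The test was limma (version 3.58.1, R version 4.3.3, lmFit with eBayes) in 1 fit of 5 group means with 10 residual degrees of freedom, two-sided and adjusted over all genes by the Benjamini-Hochberg method. The script was tested on simulated data. Alternatives were the mean of all features, quantile normalization, centring on the median, leaving out genes of mean under 5, a variance trend, the 6 arrays of a comparison alone, a replicate block and leaving out each array. Every member could be named; array values are given for the 8 largest called rises and falls per compound, the leading gene of each class and paralogue pairs, and partner lists are illustrated by up to 3 genes with the smallest p. The members and lists were chosen with earlier results of these data known. Promoter sequences are from RefSeq.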

Additional observations from a re-analysis of the deposited data

How the results depend on the processing

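No called difference of a member changed sign in an alternative; the cause of the changes below was not tested, beyond the fewer arrays or genes that a setting holds. With the 6 arrays alone, the members higher numbered 5 with OTX015, 4 with DW71177 and 1 with RVX208, and 2 for DW71177 against DW71374. Leaving out genes of mean under 5 gave 6 higher and 2 lower with RVX208 and 2 higher for DW71177 against OTX015, and a variance trend gave 2 lower with RVX208 and 1 higher for DW71177 against OTX015. Leaving out each array in turn gave 5 to 8 members higher with DW71177, 1 to 2 lower with RVX208, 3 to 6 lower for DW71374 against OTX015 and 3 to 6 higher for DW71177 against DW71374. The median difference ranged from -0.00362 to 0.035 for DW71177, 0.0037 to 0.024 for DW71374, 0.029 to 0.066 for DW71374 against OTX015 and -0.000120 to 0.027 for DW71177 against DW71374. For DW71374 it was 0.0063 after quantile normalization, 0.019 after centring and 0.016 without dim genes, and against OTX015 0.0079 after quantile normalization and 0.069 without dim genes. Over all genes, those called between DW71177 and OTX015 numbered 186, but 593 of the brighter genes and 1 with the 6 arrays alone. Against DMSO, quantile normalization ended the OTX015 calls on POLR2H and MED22, and a variance trend ended the DW71177 call on MED15. Centring ended the OTX015 calls on POLR2H and MED23 and the DW71177 calls on GTF2B and MED13L. The replicate block ended the same calls as centring except that on MED13L. The dim members and the 3 arrays per group limit what these data can show.

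The replicate numbers did not pair the arrays: deviations of same-numbered arrays correlated at -0.087 to 0.098, and 0 of 30 pairs passed 0.1. With the replicate number as a block, OTX015 gave 8 members higher and 11 lower, DW71177 10 and 6, RVX208 3 and 1, and DW71374 0 and 0.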
